A study of Homo sapiens with 26 samples.

Results

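The nontargeting sgRNAs of the nuclear size library are the members described here. They were chosen as the sgRNAs whose gene entry in the deposited count table is negative_control, which gave 22 of 6012 different sgRNAs, or 0.366%. The other 5990 sgRNAs target 544 genes through 599 transcription start sites. No measured value entered this choice.

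In CRISPR interference, dCas9 fused to the KRAB repressor domain is led by an sgRNA to the start of a gene and lowers its transcription without cutting DNA. A nontargeting sgRNA carries a spacer with no intended match in the genome, so cells that received one are the internal reference of a pooled screen. The abundance of each sgRNA in genomic DNA stands for the cells that carry it, and the ratio of sorted to control cells is its phenotypic score. Scores in such screens are commonly set relative to the median of the nontargeting sgRNAs. Here the study tested the start sites of each gene against these 22 and, because they were few, judged significance against simulated Ctrls drawn from the whole library.

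All groups used hTERT-RPE1, an immortalized human retinal pigment epithelial line, which carried dCas9-KRAB-BFP, the photoactivatable protein PA-mCherry and a GFP-tagged histone (H2B-mGFP), was transduced with this library and was selected with puromycin. In the nuclear size screen, cells with a nuclear area above 1000 µm2 were photoactivated under the microscope and sorted by FACS (8 photoactivated samples, 4 imaging runs of 2 replicates), against unanalyzed cells of the same replicate, which were also collected by FACS (6 samples, where 1 sample served runs 1 and 2 and another runs 3 and 4 of replicate 1). In the H2B-mGFP and FSC screens, the top 10 percentile of cells by GFP fluorescence or by forward scatter (FSC), an optical correlate of cell size, was sorted (2 samples each), and both screens shared 2 unsorted control samples. The runs of a replicate share transduced cells, so the replicate is the unit of every mean below. The labels do not say whether the 2 replicates, which the study calls biological in the nuclear size screen, were separate transductions, and p-values then measure only the spread between these samples. Per the labels, samples of few cells were extracted with another DNA kit. By the cell numbers in the study the photoactivated samples were among these, and its text gives none for the unanalyzed cells. Where a control used the usual method, the kit cannot be told apart from sorting, and whether it moved any value was not tested.

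Total counts ran from 2925093 to 45825231 per sample. Counts came from PCR without molecular identifiers, so the intervals below cover counting error only. The samples of replicate 2 held 38 sgRNAs, none of them nontargeting, whose share of counts in any of its control samples exceeded that in the matching control of replicate 1 more than 16-fold. Their summed share of counts was 0.121% to 1.62% in the sorted samples of replicate 1 of all 3 screens, and 14.7% to 83.4% in those of replicate 2.

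In the control samples, the nontargeting sgRNAs were about as abundant as the targeting ones. All 22 had counts above 0 in all 20 samples. In the 8 control samples of the 3 screens they held 0.270% to 0.406% of all counts, around the 0.366% that equal abundance would give, and their median count was 1.01 to 1.19 times the median of the targeting sgRNAs, above 1 in 8 of 8 samples. By sample, the unanalyzed cells held 0.406% (runs 1 and 2) and 0.368% (runs 3 and 4) in replicate 1 and 0.314%, 0.366%, 0.359% and 0.349% (runs 1 to 4) in replicate 2. The unsorted controls held 0.389% in replicate 1 and 0.270% in replicate 2, the lowest of the 8, and in that sample the 38 elevated sgRNAs took 22.9% of the counts.

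The 22 members were not equally abundant. Their median abundance over the 8 control samples ran from 15.2 CPM (counts scaled to a library total of 1000000) to 262 CPM, with a median over members of 168 CPM. The most abundant was non-targeting_03054. The least abundant, non-targeting_00379, stood alone, since the next lowest, non-targeting_02467, had 77.9 CPM. The level of non-targeting_00379 also varied most, from 4.77 CPM to 70.1 CPM among the controls, a 14.7-fold range, against a median range of 2.11-fold over the 22 members and 2.13-fold over the targeting sgRNAs. Its counts were 54 to 197 in unanalyzed samples, and 759 and 423 in the unsorted controls of replicates 1 and 2.

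Setting 1 control sample against another gave the spread of the members without selection for a phenotype. The log2 ratio of unanalyzed runs 3 and 4 over runs 1 and 2 of replicate 1 had an SD of 0.47 over the 22 members, and those of runs 2, 3 and 4 over run 1 of replicate 2 had SDs of 0.76, 0.52 and 0.57. Between replicates it was 0.57 in the unanalyzed cells, where run 1 of replicate 2 was set over runs 1 and 2 of replicate 1, and 0.71 in the unsorted controls. The targeting sgRNAs gave 0.52 to 0.78 over the same comparisons.

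In photoactivated cells the members were far less even. By the study's numbers, fewer sorted cells were recovered from each run than the library has sgRNAs. How far this set the values of this screen was not tested. The share of counts held by the 22 members ran from 0.0442% to 0.731% (median 0.251%), where the unanalyzed samples lay between 0.314% and 0.406%. In replicate 1 the share was 0.548% in run 1 (95% Wilson interval 0.543% to 0.552%), 0.389% in run 2 (0.385% to 0.393%), 0.114% in run 3 (0.111% to 0.116%) and 0.731% in run 4 (0.721% to 0.741%). Runs 1 and 4 were above every unanalyzed sample, run 2 was inside their range and run 3 was below it. In replicate 2 it was 0.0851% in run 1 (0.0831% to 0.0871%), 0.0442% in run 2 (0.0436% to 0.0448%), 0.0879% in run 3 (0.0864% to 0.0894%) and 0.419% in run 4 (0.414% to 0.425%). Runs 1 to 3 were below all unanalyzed samples and run 4 was above them. The elevated sgRNAs held 65.2%, 83.4%, 75.2% and 19.0% of the counts in runs 1 to 4 of replicate 2, and their part in the low share was not tested beyond leaving them out of the totals.

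As a log2 ratio of photoactivated over unanalyzed share, the runs gave 0.43, -0.06, -1.70 and 0.99 in replicate 1 and -1.89, -3.05, -2.03 and 0.26 in replicate 2. The mean over replicates was -0.88 ± 1.13 (SD, n = 2), a difference smaller than the spread between replicates. Leaving the elevated sgRNAs out of the totals brought it to -0.14, and TMM scaling, which sets the bulk of sgRNAs to no change, turned it to 2.51. This scaling matters throughout, since the median fold change over all sgRNAs was -2.42 when scaled to totals and -0.19 by TMM in this screen, -0.72 and -0.02 by H2B-mGFP and -0.28 and 0.01 by FSC. A ratio to totals below 0 is therefore given beside that of the targeting sgRNAs, and the difference of their medians does not depend on the scaling.

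A few members carried most of the nontargeting counts, since the 3 largest of each run held 50.6% to 87.8% of them, against 21.1% to 23.5% in the unanalyzed samples. In run 1 of replicate 1, non-targeting_02314 alone had 28252 counts, 50.4% of all nontargeting counts. The largest member held 20.9% in run 2 (non-targeting_02986, 7344 counts), 64.9% in run 3 (non-targeting_00780, 5152 counts) and 42.5% in run 4 (non-targeting_01557, 9091 counts). In replicate 2 it held 26.9% in run 1 (non-targeting_01557, 1843 counts), 60.4% in run 2 (non-targeting_02155, 12232 counts), 84.8% in run 3 (non-targeting_01180, 10915 counts) and 19.6% in run 4 (non-targeting_01859, 4910 counts). These 8 places went to 7 different members, and only non-targeting_01557 held the first place in more than 1 run. In the unanalyzed samples the largest member held 7.35% to 8.76%.

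In each run some members were above their level in the unanalyzed cells and a larger number below it. The log2 ratios of the lower members had medians of -5.56 to -1.66 by run. Single values came near 0, such as -0.10 in run 1 of replicate 2. In replicate 1, the members with a log2 ratio above 0 numbered 4, 6, 1 and 3 of 22 in runs 1 to 4, where the share of all sgRNAs above 0 was 12%, 24.9%, 4.48% and 8.08%. In replicate 2 they numbered 2, 1, 1 and 8 of 22, where it was 10.9%, 6.32%, 8.08% and 27.3%. Each count lay within 2 members of what those shares give for 22 sgRNAs. The members above 0 held 96.6%, 85.3%, 64.9% and 87.0% of the nontargeting counts in replicate 1 and 45.1%, 60.4%, 84.8% and 89.6% in replicate 2.

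The members at or below 0 mostly had low counts, which still followed their counts in the control. Their median was 104 counts in run 1 of replicate 1, over 18 members, where the same members had a median of 1528 in the unanalyzed cells. Over all 8 runs this median lay between 57 and 238 counts, against 705 to 2967 in the unanalyzed cells. Across these 14 to 21 members, the correlation of log2 counts with those in the unanalyzed cells of the same run was 0.51 to 0.87 (Pearson's r, a description, where every point shares its 2 libraries). It was 0.82 to 0.87 in runs 1, 3 and 4 of replicate 1 and run 3 of replicate 2. In these runs the low members spread least, with SDs of their log2 ratios of 0.51, 0.58, 0.57 and 0.52. For targeting sgRNAs at or below 0 the SDs there were 0.81, 0.73, 0.63 and 1.19. In run 2 of replicate 1 and runs 1, 2 and 4 of replicate 2 the SDs of the low members were 1.16, 1.31, 1.34 and 1.45. Those of the targeting sgRNAs were 0.95, 1.10, 1.59 and 1.31. The 0.47 to 0.76 between 2 control samples was over all 22 members, whereas the low members were picked by this ratio. Each correlation included non-targeting_00379, the lowest member in both samples (18 against 180 counts in run 1 of replicate 1), and none was computed without it. For targeting sgRNAs at or below 0 the same correlation was 0.45 to 0.71.

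The members that were rich in one run were mostly low in the others. Of the 176 values (22 members in 8 runs) 26 were above 0, or 14.8%, beside 12.7% for the targeting sgRNAs measured in all 8 runs. No run was above 0 for 5 members, 1 run for 9, 2 runs for 7 and 3 runs for 1, non-targeting_01180. Among the targeting sgRNAs, 35.7% were above 0 in no run, 38.1% in 1, 18.6% in 2 and 5.38% in 3. With at least 1 run above 0 in each replicate there were 5 members, or 22.7%, beside 17.6% of targeting sgRNAs, and these were non-targeting_02271, non-targeting_02986, non-targeting_01859, non-targeting_01180 and non-targeting_01557.

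Averaged over runs and replicates, the 3 highest members were non-targeting_01557, non-targeting_01180 and non-targeting_02314. For non-targeting_01557, the log2 ratios were -3.47, -2.49, -2.18 and 5.09 in replicate 1 and 0.71, -2.09, -4.97 and -3.62 in replicate 2. That mean of -1.63 ± 1.22 (SD, n = 2) thus rested on run 4 of replicate 1, in which it had 3108 CPM against 91.3 CPM to 159 CPM in the unanalyzed cells.

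For non-targeting_01180, they were -4.10, 1.14, -3.77 and -2.28 in replicate 1 and -2.92, -4.69, 1.91 and 1.17 in replicate 2, with a mean of -1.69 ± 0.79 (SD, n = 2). For non-targeting_02314, they were 3.56, 1.60, -2.08 and -0.52 in replicate 1 and -2.08, -6.08, -5.00 and -4.48 in replicate 2. Its replicate means of 0.64 and -4.41 were the farthest apart of the 22, with an SD of 3.57, and its first 2 runs were both above 0 while no run of replicate 2 was.

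The 3 lowest members were non-targeting_03656, non-targeting_02467 and non-targeting_03230. For non-targeting_03656, photoactivated samples ran from 2.07 CPM to 25.6 CPM (median 6.01 CPM) and unanalyzed samples from 85.5 CPM to 151 CPM (median 135 CPM). For non-targeting_02467, they ran from 1.83 CPM to 13.0 CPM (median 4.72 CPM) against 23.0 CPM to 112 CPM (median 76.6 CPM). For non-targeting_03230, they ran from 2.97 CPM to 87.1 CPM (median 7.17 CPM) against 102 CPM to 180 CPM (median 136 CPM).

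These were also the 3 members whose 8 photoactivated samples all lay below the 6 unanalyzed samples, and no member lay entirely above. The share of all sgRNAs entirely below was 29.6%, and 0% were entirely above. The median of the photoactivated samples was below the lowest unanalyzed sample for all 22 members, as it was for 96.3% of all sgRNAs. Mean log2 ratios were -4.19 ± 1.24, -3.81 ± 0.45 and -3.68 ± 1.45 (SD, n = 2), in the order named above.

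The median of the members moved from run to run. Scaled to totals, it was in replicate 1 at -3.95, -2.64, -3.23 and -1.60 in runs 1 to 4, and the median of the targeting sgRNAs was -4.00, -2.99, -3.57 and -1.93. In replicate 2 it was -3.66, -5.53, -4.67 and -1.13, and the targeting median was -3.71, -5.28, -4.59 and -2.70. The nontargeting median was thus 0.04 to 0.35 above the targeting median in all 4 runs of replicate 1, and 0.04, -0.25, -0.08 and 1.58 from it in the runs of replicate 2.

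Averaged over the runs of a replicate the difference was 0.27 in replicate 1 and 0.32 in replicate 2, or 0.29 ± 0.04 (SD, n = 2). This small SD stood over runs from -0.25 to 1.58 within replicate 2. Without run 4 of replicate 2 the mean was 0.0860. In that run the members were widely spread, with an interquartile range of 4.30 (3.96 for targeting sgRNAs) and 8 of 22 above 0. Their median of -1.13 lay between the 11th value, -1.20, and the 12th, -1.06. In run 3 of the same replicate the interquartile range was 0.56, and 1.10 for the targeting sgRNAs.

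When the ratios to totals of each sgRNA were averaged over the 4 runs first, the order of the groups differed between replicates. The nontargeting median was then -2.03 in replicate 1, above the targeting median of -2.90, and -3.65 in replicate 2, below the targeting median of -3.41. Of the 599 start sites, scored by the median of their sgRNAs, 67 (11.2%) were above the nontargeting median in replicate 1 and 405 (67.6%) in replicate 2. When the counts of the runs were summed, the mean difference over replicates was 0.98. Such sums weight each run by its depth. In photoactivated replicate 2, run 2 had 45825231 counts and the other runs 5974588 to 14642499. With every run first set relative to its own nontargeting median, and then averaged over runs, 300 start sites (50.1%) were above 0 in replicate 1 and 443 (74.0%) in replicate 2. On this scale the median of the 22 members themselves was 0.83 in replicate 1 and 0.0978 in replicate 2, not 0.

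Across members, the log2 ratios of the 2 replicates were not positively correlated. The correlation of their log2 ratios, each the mean of 4 runs, was -0.22 over the 22 members and 0.15 over 5981 targeting sgRNAs (Pearson's r, with Spearman's rho of -0.11 and 0.10). Between runs of 1 replicate the median r over 12 pairs was 0.12 (-0.14 to 0.34) over members and 0.25 (0.21 to 0.40) over targeting sgRNAs. These are descriptions over sgRNAs that share libraries.

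The replicate test gave no nontargeting sgRNA in the nuclear size screen. It used the counts summed over the runs of a replicate, so deeper runs weighed more in its fold changes. With edgeR's quasi-likelihood test, TMM scaling and the replicate as a block, 0 of 22 members passed an adjusted p of 0.05, beside 0.0998% of the 6011 sgRNAs tested that were called higher and 0.133% called lower. The lowest adjusted p was 0.085 for non-targeting_02467, with a log2 fold change of -1.96 ± 0.66 (SE, edgeR), and non-targeting_03656 followed at -2.23 ± 0.78 (SE) with an adjusted p of 0.090 (edgeR). Those were the 2 members with an unadjusted p under 0.05, both lower, where 16.3% of all sgRNAs had an unadjusted p under 0.05 and were lower, and 0.749% were higher.

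The 3 highest members had standard errors larger than their fold changes. On the same scale, non-targeting_01557 was at 2.13 ± 2.30 and non-targeting_01180 at 1.97 ± 2.39 (SE), with adjusted p of 0.97 and 0.997 by edgeR. The median fold change of the 22 was -0.07 and that of the targeting sgRNAs -0.19, with SDs over sgRNAs of 1.26 and 1.498. The call was not stable to the tool or scaling. Scaling to library totals called 2 members and scaling to the summed nontargeting counts 3, all lower, where 21.9% and 11.4% of all sgRNAs were called. The summed nontargeting counts include the members tested, so those 3 calls are not independent of the scaling. In each photoactivated run, the 3 largest members held 50.6% to 87.8% of that sum. DESeq2 called 6 (4 higher, 2 lower), where it called 26.6% of all sgRNAs. Leaving out photoactivated replicate 1 or 2 called 14 and 19, where 78.4% and 89.4% of all sgRNAs were called and the spread came from the 2 unanalyzed samples alone.

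Cells high in H2B-mGFP carried a smaller share of nontargeting counts than the unsorted cells in both replicates when set against library totals, and under TMM scaling the mean log2 ratio was 0.0550. In replicate 1 the share was 0.324% (95% Wilson interval 0.320% to 0.327%) against 0.389% (0.386% to 0.393%) in the control, a log2 ratio of -0.27. In replicate 2 it was 0.132% (0.130% to 0.133%) against 0.270% (0.268% to 0.272%), a log2 ratio of -1.04. The mean of -0.65 ± 0.54 (SD, n = 2) was little above its spread. In replicate 2 the elevated sgRNAs held 64.6% of the counts of the sorted sample, and without them in the totals the mean was -0.0854.

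Single members held less of the nontargeting counts than after photoactivation. The largest member held 12.5% of the nontargeting counts in replicate 1 (non-targeting_02271, 3889 counts) and 9.23% in replicate 2 (non-targeting_01180, 2640 counts), against 13.3% and 6.68% for the largest in the controls. In replicate 1, 8 of 22 members had a log2 ratio above 0, where 43.4% of all sgRNAs did, and in replicate 2 this was 2 of 22, where 5.22% did. Relative to the targeting sgRNAs, the nontargeting median was 0.21 lower in replicate 1 (-0.39 against -0.19) and 0.07 higher in replicate 2 (-1.15 against -1.22). The mean difference of -0.07 ± 0.19 (SD, n = 2) was smaller than its spread.

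The 3 highest members by H2B-mGFP were non-targeting_00379, non-targeting_03230 and non-targeting_02838. The level of non-targeting_00379 was 75.3 CPM in sorted cells and 70.1 CPM in the control in replicate 1, and 69.8 CPM and 21.8 CPM in replicate 2, log2 ratios of 0.10 and 1.67. It was the only member above its control in both replicates, and the least abundant in the controls. For non-targeting_03230 the sorted and control levels were 325 CPM and 124 CPM in replicate 1 and 66.6 CPM and 160 CPM in replicate 2, opposite directions.

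For non-targeting_02838 they were 88.4 CPM and 105 CPM in replicate 1 and 111 CPM and 120 CPM in replicate 2, close to no change in both. The 3 lowest members were non-targeting_01859, non-targeting_01180 and non-targeting_03149. In sorted cells and control, non-targeting_01859 had 30.1 CPM and 149 CPM in replicate 1 and 34.4 CPM and 180 CPM in replicate 2. These log2 ratios of -2.31 and -2.39 were the closest pair among the 3 lowest.

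For non-targeting_01180 the 2 replicates were far apart, with 10.6 CPM against 183 CPM in replicate 1 and 122 CPM against 117 CPM in replicate 2. For non-targeting_03149 they were 38.4 CPM against 171 CPM and 58.0 CPM against 148 CPM. In all, 6 of 22 members had both sorted samples below both controls and 0 had both above, where these shares were 40.1% and 1.21% of all sgRNAs.

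None of the 22 passed edgeR's test in the H2B-mGFP screen, where 0% of the 6010 sgRNAs tested were called in either direction. An unadjusted p under 0.05 by edgeR was reached by 0 members, where 0.948% of all sgRNAs reached it in each direction, and DESeq2 gave 1 such member and called 0 after adjustment. The member with the lowest unadjusted p was non-targeting_01859, with a log2 fold change of -1.64 ± 0.82 (SE) and an adjusted p of 0.9996 by edgeR. The fold changes of the 22 ran from that value to 1.58 ± 1.23 (SE) for non-targeting_00379, with a median of -0.04 beside -0.02 for targeting sgRNAs.

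In cells high in FSC the nontargeting share was 0.303% (0.299% to 0.306%) against 0.389% in replicate 1 and 0.264% (0.262% to 0.266%) against 0.270% in replicate 2. The log2 ratios were -0.36 and -0.03, with a mean of -0.20 ± 0.23 (SD, n = 2), smaller than the spread, and 0.0468 under TMM scaling. The nontargeting median was below the targeting median in both replicates, at -0.72 against -0.14 and at -0.64 against -0.45. The difference was -0.57 in replicate 1 and -0.19 in replicate 2, a mean of -0.38 ± 0.27 (SD, n = 2). Of the 599 start sites, 521 (87.0%) and 357 (59.6%) had a median above that of the nontargeting sgRNAs, beside 396 (66.1%) and 237 (39.6%) in the H2B-mGFP screen.

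Members rich in FSC-high cells numbered 8 of 22 in replicate 1 and 10 of 22 in replicate 2, where 44.3% and 40.1% of all sgRNAs were above 0. In replicate 2 the members were split, with an interquartile range of 2.65 (2.36 for targeting sgRNAs), and the median of -0.64 fell in a gap between the 11th value, -1.06, and the 12th, -0.21. With 1 member more on the low or on the high side, the median would have been the first or the second of these values.

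The 3 highest members by FSC were non-targeting_03244, non-targeting_00780 and non-targeting_01859. For non-targeting_03244 the sorted and control levels were 284 CPM and 189 CPM in replicate 1 and 339 CPM and 173 CPM in replicate 2. It was the only member with both sorted samples above both controls, as 13.5% of all sgRNAs were. For non-targeting_00780 they were 35.7 CPM and 56.5 CPM in replicate 1 and 305 CPM and 107 CPM in replicate 2, in opposite directions.

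For non-targeting_01859 the log2 ratios were 0.06 and 0.61, so that it was among the 3 highest by FSC and the lowest by H2B-mGFP, 2 readings that share their controls. The 3 lowest were non-targeting_02467, non-targeting_02986 and non-targeting_03149. In replicate 1, non-targeting_02467 had 37 counts, the only member under 50, at 3.99 CPM against 140 CPM in the control, and in replicate 2 it had 3064 counts at 119 CPM against 63.6 CPM. Its log2 ratios of -5.14 and 0.90 were the widest pair in this screen.

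For non-targeting_02986 they were -2.47 and -1.37 and for non-targeting_03149 -1.53 and -2.18, low in both replicates. Members with both sorted samples below both controls numbered 5 of 22, beside 22.3% of all sgRNAs. The largest holder of nontargeting counts was non-targeting_03367 in replicate 1 (10.99%, 3087 counts) and non-targeting_02155 in replicate 2 (18.2%, 12391 counts). In replicate 1, non-targeting_02155 had 476 counts, so its log2 ratios were -2.05 and 1.48.

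None of the 22 passed edgeR's test in the FSC screen, where 0% of 6010 sgRNAs were called in either direction, and 0 members had an unadjusted p under 0.05 by edgeR or by DESeq2, where edgeR gave 1.8% of all sgRNAs such a p and higher values and 1.81% lower. The fold changes ran from -1.67 ± 1.22 (SE) for non-targeting_02986 to 1.15 ± 1.10 (SE) for non-targeting_00780, with adjusted p of 0.99 for both (edgeR). Their median was -0.27 beside 0.01 for targeting sgRNAs.

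Nor were the 2 replicates positively correlated over the members in either FACS screen. The correlation of their log2 ratios over the 22 members was -0.21 for H2B-mGFP and -0.28 for FSC, and 0.08 and 0.03 over the targeting sgRNAs. By sign, 13 members were below 0 in both replicates and 1 above in both by H2B-mGFP, and 6 below and 2 above by FSC. Among targeting sgRNAs 54.6% were below 0 and 3.22% above 0 in both replicates by H2B-mGFP, and 33.4% and 17.9% by FSC. In the nuclear size screen 21 of 22 members had a mean below 0 in both replicates, all but non-targeting_02314, beside 92.8% of targeting sgRNAs.

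Targeting sgRNAs of other genes give the scale on which the members sat. The 210 sgRNAs of 18 zinc finger genes, whose symbols start with ZNF and which encode mostly DNA-binding proteins, had a median log2 ratio, averaged over replicates, of -3.14 in the nuclear size screen, -0.75 by H2B-mGFP and -0.33 by FSC, with the runs of a replicate averaged first. On the same scale the 22 members had -2.69, -0.74 and -0.56, and all targeting sgRNAs -2.996, -0.78 and -0.37. In the nuclear size screen 10.7% of the zinc finger values were above 0, beside 14.8% of the nontargeting values.

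AURKB, INCENP and CDCA8, of the chromosomal passenger complex, which corrects kinetochore attachments and is needed for cytokinesis, had 30 sgRNAs (28 measured after photoactivation) with medians of 0.18 after photoactivation, 0.78 by H2B-mGFP and 0.34 by FSC. For CASP8AP2 and HINFP, which serve histone gene expression, the medians over 20 sgRNAs were -1.20, 0.58 and 0.42. For TOP2A, the topoisomerase that untangles sister chromatids, they were -0.11, 1.17 and 0.26 over 10 sgRNAs, of which 9 were measured in the nuclear size screen. In replicate 1 by H2B-mGFP these 3 lists stood at 1.61, 1.59 and 1.63 where the members stood at -0.39, and in replicate 2 at -0.35, 0.17 and 0.34 where the members stood at -1.15. Both replicates of these lists were above the members, and since the lists were chosen with such values known, their position is a description. In replicate 2, an sgRNA of TOP2A held 45.2% of the counts of photoactivated run 2, and 1 of CASP8AP2 held 3.60% in FSC-high cells. An sgRNA of INCENP held 3.29% of the unsorted control of replicate 2, where the most abundant sgRNA in that of replicate 1 held 0.102%. How many of the elevated sgRNAs belong to these lists was not counted.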

How the data were processed

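The authors amplified sgRNAs from genomic DNA by PCR and deposited raw read counts per sgRNA, counted by a pipeline built on ScreenProcessing, of which the sources used here give neither version nor settings. Their deposited phenotypic scores per sgRNA, and the mIFP screen, which held none of these nontargeting sgRNAs, were not used here.

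From the counts, 80 sgRNAs listed in 2 rows were taken once. Shares and log2 ratios were scaled to library totals (2925093 to 45825231 counts). Pairs with both counts under 50 were dropped, which removed no member, and 1 was added to a pair in which either count was 0. Ratios were computed in Python 3.11.15. The quasi-likelihood test of edgeR 4.0.16 was run in R 4.3.3 after TMM scaling and filterByExpr on 6010 or 6011 sgRNAs, with p-values adjusted over all of them by Benjamini and Hochberg's method and a threshold of 0.05, runs summed within a replicate, H2B-mGFP and FSC in 1 fit, and DESeq2 1.42.0 as an alternative.

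An SE beside an edgeR fold change was derived as the absolute fold change over the square root of the test's F statistic. The replicate was a block because each sorted sample was scored against the control of its own replicate. Deviations of same-numbered samples from their group means correlated at 0.252 in the nuclear size screen and at 0.106 to 0.204 between the groups of the FACS screens. Members named in the text were the 3 highest and 3 lowest by mean log2 ratio per screen, any called, the largest holder of nontargeting counts in each sorted sample, and the most and least abundant in the controls. The members, the lists and this rule were chosen with earlier results of these data known. Alternatives changed the scaling, the count added, the filter, the median, the repeated rows, the runs, the replicates or the block.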

Additional observations from a re-analysis of the deposited data

Results flagged for a closer look

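Among 48 sets of values examined with Dixon's test, 3 held a value that stood apart from the rest of its set, where chance gives about 1 in 20 sets. The nontargeting median minus the targeting median was 1.58 in run 4 of photoactivated replicate 2, and the other 7 runs lay between -0.25 and 0.35. For non-targeting_00780 the log2 ratio of photoactivated over unanalyzed cells was 2.93 in run 3 of replicate 1, against -4.58 to -1.31 in the other 7 runs. For non-targeting_03149 it was 3.47 in run 4 of replicate 1, against -4.56 to -1.20 in the other 7 runs.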

How the results depend on the processing

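Scaling moved the ratios most. Under TMM scaling the log2 share of the nontargeting sgRNAs was 2.51 in the nuclear size screen, 0.0550 by H2B-mGFP and 0.0468 by FSC, all opposite in sign to the ratios to totals, and their median log2 ratio was 0.0896, -0.0663 and -0.43. Without the elevated sgRNAs of replicate 2 in the totals, this median was -2.57 in the nuclear size screen, -0.21 by H2B-mGFP and -0.75 by FSC, and the H2B-mGFP share was -0.0854. With runs summed within a replicate the nuclear size median was -1.90 and its difference from the targeting median 0.98. With means over sgRNAs that difference was 0.0778, and the one by H2B-mGFP was 0.0460. Leaving out 1 imaging run put the nuclear size difference between 0.0860 (without run 4 of replicate 2) and 0.39, and leaving out 1 replicate put the H2B-mGFP difference between -0.21 and 0.0661. The filter, the count added and the repeated rows moved no value by more than the spread between replicates. Averaging the runs of each sgRNA first was chosen after seeing the data and gave a nuclear size difference of 0.31, as the mean of replicates with opposite signs.

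Calls changed in the nuclear size screen. With scaling to library totals edgeR called 2 members (21.9% of all sgRNAs), with scaling to the nontargeting counts 3 (11.4%), DESeq2 called 6 (26.6%), and leaving out photoactivated replicate 1 or 2 without the block called 14 (78.4%) and 19 (89.4%), with the lone sample assumed to vary like the 2 unanalyzed ones. Leaving out unanalyzed replicate 1 or 2 put the median fold change of the 22 at 0.95 and 1.20, where that of all sgRNAs was 0.42 and 0.48. Without the replicate block 0 members were called in each of the 3 screens, as with it, where 0% of all sgRNAs were called. In the H2B-mGFP and FSC screens every alternative that kept all samples called 0 members. The share of all sgRNAs called there was at most 0.216% and 0.0832%, so 0 of 22 does not set the members apart. The causes were not tested. There were 2 replicates, with 1 residual degree of freedom in the nuclear size fit. The fold change of a member carried a median SE of 2.09 there, 0.97 by H2B-mGFP and 0.99 by FSC. An SE is not a limit of detection, and some larger fold changes were not called either. Among them were 2.13 for non-targeting_01557 in the nuclear size screen and 1.58 for non-targeting_00379 by H2B-mGFP. Differences of such sizes could thus go undetected at this replication.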
